A study of Homo sapiens with 8 samples.

Results

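The genes described here are the ID (inhibitor of DNA binding) proteins ID1, ID2, ID3 and ID4 and 6 genes of bone morphogenetic protein (BMP) signalling, the ligands BMP2 and BMP4, the receptors BMPR1A and BMPR2, the inhibitory SMAD gene SMAD6 and the secreted antagonist gene CHRDL1. They were taken from a list of names, chosen with earlier results of these data known. A feature of the arrays was counted for a gene when its annotation gave that gene alone. All 10 had at least 1 such feature, among 17303 genes named in the series. MDA-MB-231 cells, a cultured line from a triple-negative human breast cancer, gave the RNA after stable lentiviral transduction with a short hairpin RNA. In 1 group the hairpin was a control sequence and in the other it targeted integrin α3 (the knockdown), and each group had 2 replicates labelled as biological. P-values measure only the spread between these arrays. Both groups went through transduction, and the loss of α3 cannot be told apart from any further effect of its 1 hairpin or from differences between the transduced lines. Whether the transduced cells were clones or pools is not given in the sources used here. Each of the 4 RNAs was read on an Affymetrix Human Exon 1.0 ST array, summarised per gene (transcript cluster) and per exon region (probeset). The gene-level and exon-level values come from the same arrays and are not separate replicates.

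BMP ligands bind pairs of type I and type II serine/threonine kinase receptors, which phosphorylate the receptor-regulated SMADs. These enter the nucleus with SMAD4 and switch on target genes, of which the ID genes are the best known. ID proteins have a helix-loop-helix domain but no DNA-binding region, so they pair with basic helix-loop-helix (bHLH) factors such as the E proteins and keep them off DNA. Secreted antagonists such as noggin and the chordin family hold the ligands outside the cell, and the inhibitory SMADs act inside it. In breast cancer, ID1 and ID3 have been studied for their part in metastasis to the lung.

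Values are linear PLIER intensities (a probe summary method), with means ± SD over n = 2 arrays of a group. Differences are knockdown minus control on the log2(intensity + 16) scale, which understates changes of dim genes. They were tested with limma across all features (two-sided), with Benjamini-Hochberg adjusted p under 0.05 counted as passing, after leaving out the dimmest 40% of features. Median intensities of the 4 arrays ran from 168 to 186 over clusters. ITGA3, the target of the hairpin, measured 3480 and 3529 under the control hairpin and 619 and 644 in knockdown cells. Of 13206 transcript clusters tested, 793 were called higher (6.0%) and 2033 lower (15.4%). Quantile normalization turned this split to 1353 higher and 1701 lower, and centring each array on its median to 1542 and 1505, moving the median log2 difference of all clusters from -0.06 to 0.02 and 0.04. Genes known for mesenchymal breast cancer cells (VIM, CD44, AXL, CAV1, ZEB1) measured 442 to 5584 on all 4 arrays, but AXL was lower in the knockdown (4130 and 4217 against 2914 and 2908, log2 difference -0.52, adjusted p = 0.00686, limma), and the other 4 did not pass. The luminal genes ESR1 and PGR, the leukocyte gene PTPRC, the fibroblast genes DCN and LUM and the endothelial genes PECAM1, CDH5 and VWF all lay among the dim features, while the luminal genes KRT8 (3899 to 4504) and EPCAM (99.0 to 138), the leukocyte genes CD14 (205 to 251) and CD3E (93.5 to 144) and the fibroblast gene COL1A1 (147 to 167) did not, and none of these 5 passed. The part of other cell types in the results was not tested, and in bulk RNA fewer cells of a type cannot be told apart from less RNA per cell. CDH1, also left out as dim, measured 25.4 and 28.8 under the control hairpin and 177 and 168 in knockdown cells.

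ID1 and ID3 were about 2 times as high in the knockdown as in the controls, ID4 was lower at the gene level, and ID2 did not pass. CHRDL1 was almost lost, BMP4 was slightly higher, and the receptors and SMAD6 did not pass. Of the 8 members tested at the gene level, 3 were called higher and 2 lower, where 6.0% and 15.4% of all clusters tested were. The BMP4 and ID4 calls were lost under some of the alternative settings given below. In 6 of the 8 members both knockdown arrays lay on one side of both controls, which is 75.0% of the members, against 61.9% of all clusters tested. The separation of the groups alone is therefore common in these arrays. The median log2 difference of the 8 members was 0.04, against -0.06 over all clusters tested. CHRDL1 passed the filter on dim features through its control arrays only.

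**Figure D1:**
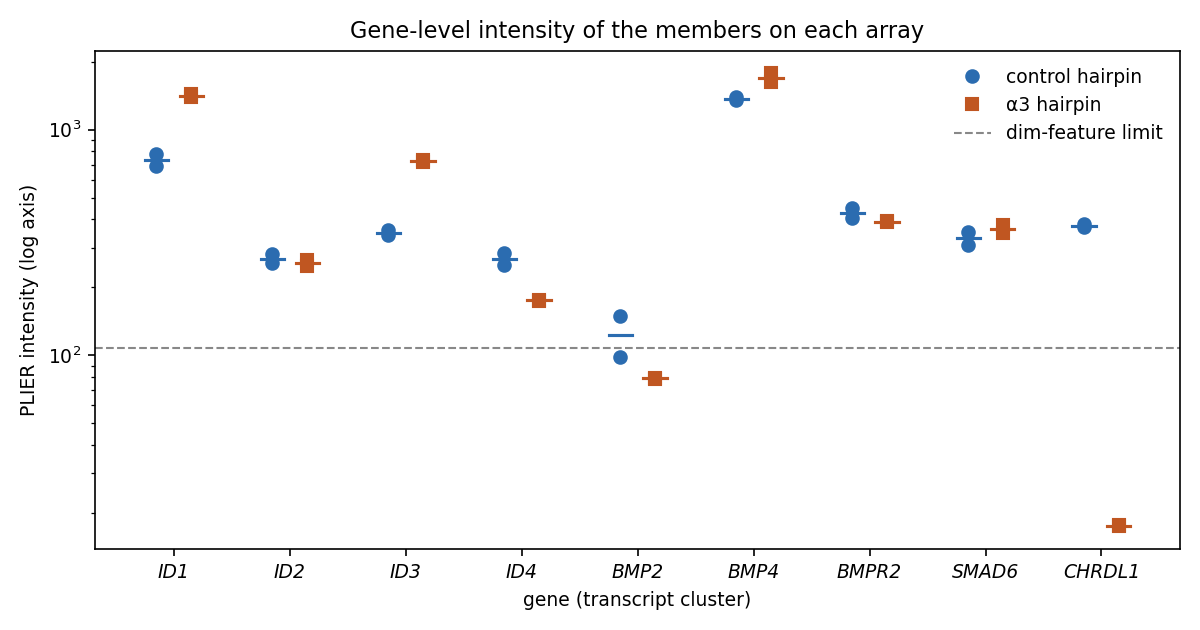
Gene-level PLIER intensity (log axis) of the 9 members with a transcript cluster on each array, with circles for the control hairpin, squares for the α3 hairpin, short lines for the group means and a dashed line at the limit below which features were left out. ID1 and ID3 lie higher and CHRDL1 far lower in the knockdown, BMP2 lies around the limit, and ID2 and SMAD6 overlap between groups.

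ID1 (transcript cluster 3881391) measured 687 and 780 under the control hairpin and 1434 and 1390 in knockdown cells. Both knockdown arrays lay far above both controls, from a mean of 734 ± 65.6 to 1412 ± 30.7. The log2 difference was 0.93 ± 0.089 (SE), with an adjusted p of 0.00265 in limma. ID3 (cluster 2401493) measured 342 and 358 under the control hairpin and 736 and 720 in knockdown cells, again with no overlap. Its log2 difference was 1.03 ± 0.082 (SE), with an adjusted p of 0.00154. ID1 and ID3 kept their calls in all 14 alternative settings, with log2 differences of 0.82 to 1.03 for ID1 and 0.94 to 1.12 for ID3.

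ID2 (cluster 2468622) measured 256 and 280 under the control hairpin and 248 and 265 in knockdown cells, and the groups overlapped. Its log2 difference of -0.06 (95% interval -0.31 to 0.19) did not pass (adjusted p = 0.734, limma) and became 0.04 after quantile normalization and 0.03 after centring. Log2 ratios within an array, on the same offset scale, set these genes side by side. The log2 ratio of ID1 to ID2 was 1.37 and 1.43 under the control hairpin and 2.46 and 2.32 in knockdown cells, a shift of 0.99, and that of ID3 to ID2 shifted by 1.08. Only the shift of such a ratio can be read, since probe intensities of different genes are not on one scale. ID1 and ID3 thus changed unequally with ID2 on the same arrays. The log2 ratio of ID1 to ID3 was 0.97 and 1.09 under the control hairpin and 0.95 and 0.93 in knockdown cells, a shift of -0.09. No test was run on these ratios.

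ID4 (cluster 2897453) measured 284 and 252 under the control hairpin and 174.9 and 175.0 in knockdown cells, so both knockdown arrays lay below both controls. The log2 difference was -0.57 ± 0.11 (SE) and passed (adjusted p = 0.0164, limma). This call did not hold with either knockdown array left out. The log2 difference stayed at -0.57 in both of these settings, while its SE rose to 0.17. The call was also absent from the exon-level summary. There the median of the 4 tested ID4 probesets, taken on each array, gave a log2 difference of -0.06 ± 0.22 (SE) (adjusted p = 0.889, limma). Of these 4 probesets, 3 had a negative difference and 1 a positive one, and 0 passed. The median of their 4 single log2 differences was -0.45.

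The promoters of ID1 and ID3, which rose together, and of ID2, which did not pass, are shown as the 250 bases before the RefSeq transcription start (assembly GRCh38.p14, 5′ to 3′ on the gene's strand). The array files name no genome build, and the sequences serve only to describe the genes. RefSeq windows were matched by symbol for 9 of the 10 members, and BMP2 had none. The ID1 window is chr20:31605039-31605288 (plus strand), that of ID2 chr2:8681806-8682055 (plus strand) and that of ID3 chr1:23559502-23559751 (minus strand). Capitals mark matches to TATAAA, to GGCGCC (the GC-rich type of site bound by BMP SMADs), to GTCTAGAC (the palindromic SMAD box) or to the E-box CACGTG, each searched on both strands.
ID1: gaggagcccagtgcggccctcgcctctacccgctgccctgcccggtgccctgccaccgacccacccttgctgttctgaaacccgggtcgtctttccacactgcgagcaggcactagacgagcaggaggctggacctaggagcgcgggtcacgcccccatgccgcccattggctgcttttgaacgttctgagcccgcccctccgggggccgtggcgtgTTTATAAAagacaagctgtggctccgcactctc
ID2: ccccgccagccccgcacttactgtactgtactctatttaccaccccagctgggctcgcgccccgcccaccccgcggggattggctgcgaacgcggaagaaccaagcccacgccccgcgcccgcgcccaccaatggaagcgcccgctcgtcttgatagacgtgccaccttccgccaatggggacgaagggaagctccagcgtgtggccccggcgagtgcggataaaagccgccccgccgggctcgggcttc
ID3: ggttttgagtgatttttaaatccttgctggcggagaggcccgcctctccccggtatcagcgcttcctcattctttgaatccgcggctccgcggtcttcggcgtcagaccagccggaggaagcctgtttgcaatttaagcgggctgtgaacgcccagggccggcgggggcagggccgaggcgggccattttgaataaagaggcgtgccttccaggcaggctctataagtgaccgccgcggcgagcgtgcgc
In ID1, overlapping matches to TATAAA on the 2 strands began 33 and 31 bases before the start, where a TATA box would lie. ID2 and ID3 held no match to any of these 4 motifs in the window. Of 35116 RefSeq promoter windows of the same length, 10.7% held TATAAA, 16.4% GGCGCC, 0.182% GTCTAGAC and 6.34% CACGTG. The wider E-box CANNTG, which also matches CACGTG, was in 61.8% of windows, with 0 matches in ID1 and ID3 and 1 in ID2 and ID4. These are matches of letters, not evidence of binding, and a motif missing here may lie elsewhere.

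At the exon level, 172397 probesets were tested, of which 1.33% were called higher and 3.33% lower. Of the members' 114 probesets, 89 were bright enough to test. In 49 of these 89, both knockdown arrays lay on one side of both controls, a count given without the share over all probesets. The 10 called higher all belonged to ID1 and ID3, and 71 did not pass. The 8 called lower all belonged to CHRDL1 and were tested through their controls only, with knockdown values below the limit of 99.4. All 7 ID1 probesets were higher on both knockdown arrays, and 6 of them passed, with log2 differences from 0.58 to 1.16 over the 7. The smallest, probeset 3881393, measured 1399 and 1626 under the control hairpin and 2379 and 2156 in knockdown cells, and the largest, 3881394, measured 87.7 and 126 against 234 and 279. The ID1 probeset that did not pass, 3881396, had a control mean of 89.7, below the limit of 99.4, so it was tested through its knockdown arrays. The exon-level signal of the 6 other ID1 probesets went the same way along the gene. The probeset calls depended on the settings, and 0 member probesets were called higher without the filter or without the intensity trend.

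In ID3, 4 of 5 tested probesets passed, with log2 differences from 1.03 to 1.22. The fifth, probeset 2401494, measured 928 and 1298 under the control hairpin and 1184 and 905 in knockdown cells, so the groups overlapped there (log2 difference -0.08, adjusted p = 0.858, limma). Set against the mean of the other ID3 probesets it differed by -1.18 ± 0.21 (SE), which did not pass over all probesets tested for exon usage (adjusted p = 0.147). The alternative test, limma's diffSplice with its Simes adjustment per gene, called ID3 (adjusted p = 0.0171).

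ID2 had 3 tested probesets, 0 of which passed, with log2 differences from -0.05 (probeset 2468699) to 0.32 (probeset 2468704). The third, probeset 2679305, measured 3252 and 3744 under the control hairpin and 3680 and 3620 in knockdown cells. Its annotation names ID2 alone, but its identifier lies beside those of cluster 2679299, which is annotated to both ID2 and its processed copy ID2B. That cluster measured 0.00188 to 1.72 and was not counted. Signal from ID2 and ID2B may not be separable at this probeset, and the exon-level values of ID2 are uncertain for that reason. The ID4 probesets pointed in different directions, with 3 of the 4 tested negative and 1 positive. Probeset 2897465 measured 230 and 198 under the control hairpin and 97.4 and 105 in knockdown cells (log2 difference -0.97, adjusted p = 0.0644), while probeset 2897459 measured 200 and 64.1 against 205 and 412 (1.22, adjusted p = 0.175), and neither passed.

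**Figure D2:**
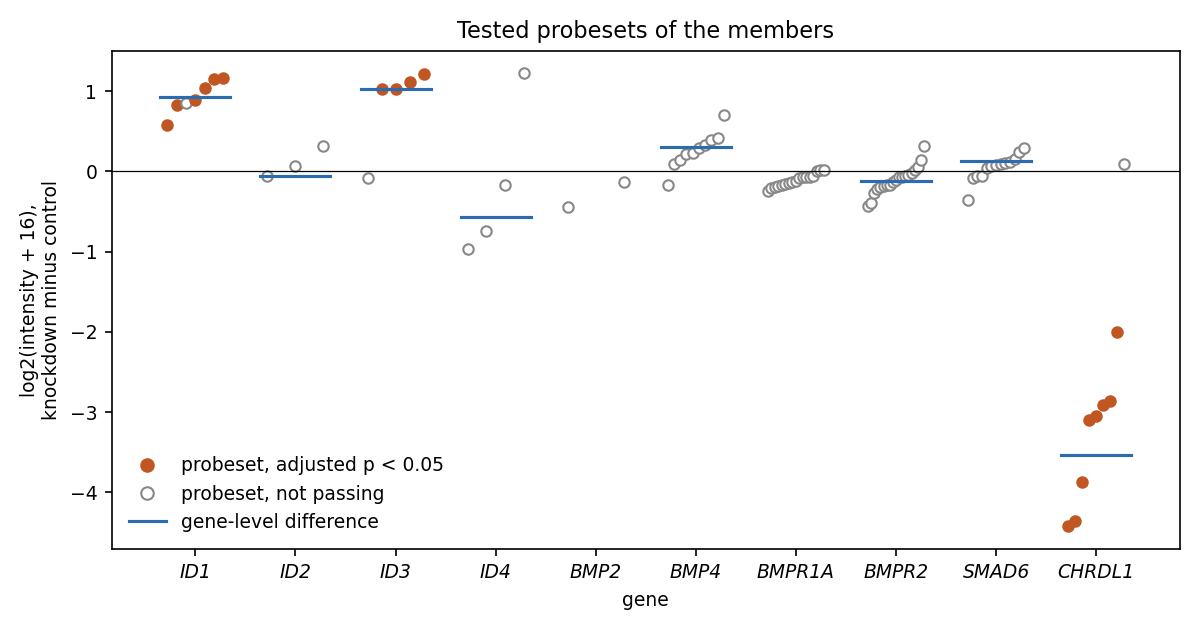
Log2 difference (knockdown minus control, on the log2(intensity + 16) scale) of each tested probeset, 1 point per probeset, filled where the adjusted p was under 0.05, with a line for the gene-level difference of the same gene. The ID1 points cluster around their line, 1 ID3 and 1 CHRDL1 probeset stay near 0 away from the others, and the ID4 points run from -0.97 to 1.22.

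BMP4 (cluster 3565206), a ligand gene, measured 1352 and 1392 under the control hairpin and 1773 and 1624 in knockdown cells. Both knockdown arrays lay above both controls, by a small margin. The log2 difference was 0.30 ± 0.080 (SE), or 1.23-fold, with an adjusted p of 0.0432 in limma. Leaving out any single array ended that call (adjusted p = 0.0960 and 0.0729 without control replicates 1 and 2, 0.255 and 0.116 without knockdown replicates 1 and 2). It was also lost without the filter (0.0776), without the intensity trend (0.0694) and on exon-level medians (0.0713), and its range over all 14 alternatives was 0.0183 to 0.255. Of the 10 BMP4 probesets, 9 had a positive difference, 0 passed, and 8 were higher on both knockdown arrays. The groups were apart in 49 of the members' 89 tested probesets, which include the called ones of ID1, ID3 and CHRDL1. At the gene level they were apart in 61.9% of all clusters tested. No share over all probesets is given here to set beside the 8 of 10. The BMP4 probesets ran from 3565234 (656 and 629 in the controls, 575 and 564 in the knockdown) to 3565207 (336 and 396 against 552 and 657, log2 difference 0.70, adjusted p = 0.0691).

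BMP2 (cluster 3875423) measured 149 and 97.9 under the control hairpin and 78.8 and 79.7 in knockdown cells. Its mean fell below the limit of 108 and it was not tested with the others. Fitted without the filter, its log2 difference was -0.53 ± 0.20 (SE) and did not pass (adjusted p = 0.188, limma). Both knockdown arrays lay below both controls, and the controls lay farther from each other than the second control lay from the knockdown. Of 5 BMP2 probesets, 2 were tested and neither passed. Probeset 3875432 measured 499 and 296 under the control hairpin and 287 and 272 in knockdown cells, and probeset 3875430 measured 430 and 481 against 512.5 and 333.

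The type II receptor gene BMPR2 (cluster 2523213) measured 404 and 448 under the control hairpin and 394 and 389 in knockdown cells. Both knockdown arrays lay just below both controls, but the log2 difference of -0.12 (95% interval -0.34 to 0.11) did not pass (adjusted p = 0.428, limma). This gene-level difference became -0.03 after quantile normalization and -0.02 after centring. Of the 19 tested BMPR2 probesets, 0 passed, 15 had a negative difference and the range was -0.43 (probeset 2523256) to 0.32 (probeset 2523246). No share of negative differences over all probesets is given here. The type I receptor gene BMPR1A had no gene-level row annotated to it and was read at the exon level only. The median over its 17 probesets, all tested, was 964 and 1139 under the control hairpin and 942 and 985 in knockdown cells, and the groups overlapped. In a fit of such medians over 12209 genes, of which 13.2% passed in either direction, its log2 difference was -0.12 (95% interval -0.39 to 0.15, adjusted p = 0.577). Its probesets stayed between -0.24 (probeset 3256123) and 0.02 (probeset 3256100), the narrowest range of the members with 3 or more tested probesets. The intervals of both receptors reach well below 0, so the arrays do not show equal levels in the groups.

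SMAD6, which encodes an inhibitory SMAD that blocks the type I receptors and is itself switched on by BMP signalling, measured 309 and 353 under the control hairpin and 349 and 379 in knockdown cells (cluster 3598758). The groups overlapped, and the log2 difference of 0.13 (95% interval -0.12 to 0.39) did not pass (adjusted p = 0.420, limma). Of 13 tested probesets, 0 passed, 9 were positive and 4 negative, from -0.36 (probeset 3598783) to 0.29 (probeset 3598798). The SMAD6 promoter window, chr15:66701986-66702235 (plus strand, GRCh38.p14), is shown because it was the only member window with the palindromic SMAD box, in capitals 12 bases before the start.
SMAD6: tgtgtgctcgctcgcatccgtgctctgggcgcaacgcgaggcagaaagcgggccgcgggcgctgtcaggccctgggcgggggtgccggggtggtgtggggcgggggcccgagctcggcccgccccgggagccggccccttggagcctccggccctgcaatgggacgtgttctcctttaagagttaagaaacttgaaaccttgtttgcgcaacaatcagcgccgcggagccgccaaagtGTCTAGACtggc

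CHRDL1 (cluster 4018080), which encodes chordin-like 1, a secreted protein that binds BMP4 and other BMPs, measured 369 and 380 under the control hairpin and 17.5 and 17.7 in knockdown cells. It stood above 64.2% of clusters or more on both control arrays and above only 8.87% and 8.95% on the knockdown arrays. The log2 difference was -3.54 ± 0.12 (SE), with an adjusted p of 0.000132 in limma. The knockdown values lay far below the limit of 108 and near the added 16, so the size of the difference depends on the offset and no exact fold is given. The call held in the 13 alternative settings that tested it, at log2 differences of -4.34 to -2.43. The stricter filter left CHRDL1 out. Its promoter window, chrX:110795818-110796067 (minus strand, GRCh38.p14), is shown as that of the member with the largest difference, and held 0 matches to the 4 motifs in capitals above and 2 to CANNTG.
CHRDL1: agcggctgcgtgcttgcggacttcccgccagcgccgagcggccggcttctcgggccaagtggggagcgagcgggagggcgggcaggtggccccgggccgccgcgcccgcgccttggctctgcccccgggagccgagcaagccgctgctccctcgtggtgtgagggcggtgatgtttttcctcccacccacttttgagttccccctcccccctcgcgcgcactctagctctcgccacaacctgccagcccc

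Of 9 tested CHRDL1 probesets, 8 passed as lower, with log2 differences from -4.42 to -2.01. On the knockdown arrays these 8 lay below the exon-level limit of 99.4, so they were tested through their controls only. Probeset 4018097 measured 368 and 467 under the control hairpin and 3.80 and 4.35 in knockdown cells, and probeset 4018088 measured 175 and 259 against 46.7 and 35.8. The ninth, probeset 4018119, has the highest identifier and measured 835 and 745 under the control hairpin and 1038 and 684 in knockdown cells (log2 difference 0.09, adjusted p = 0.844, limma). It differed from the mean of the other CHRDL1 probesets by 3.42 ± 0.21 (SE), with an adjusted p of 0.00155 in limma. The size of this difference is uncertain, since the 8 others lay below the limit of 99.4 on the knockdown arrays. Other offsets were not tried for exon usage. Over the 155406 probesets tested for exon usage, 0.0592% were called, and of the members' 87 probeset 4018119 was the only one. The signal of that probeset was thus kept where that of the 8 others was lost. Whether it reads CHRDL1 transcript was not tested. Among the 4 probesets left out as dim, 3 were also lower on both knockdown arrays.

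**Figure D3:**
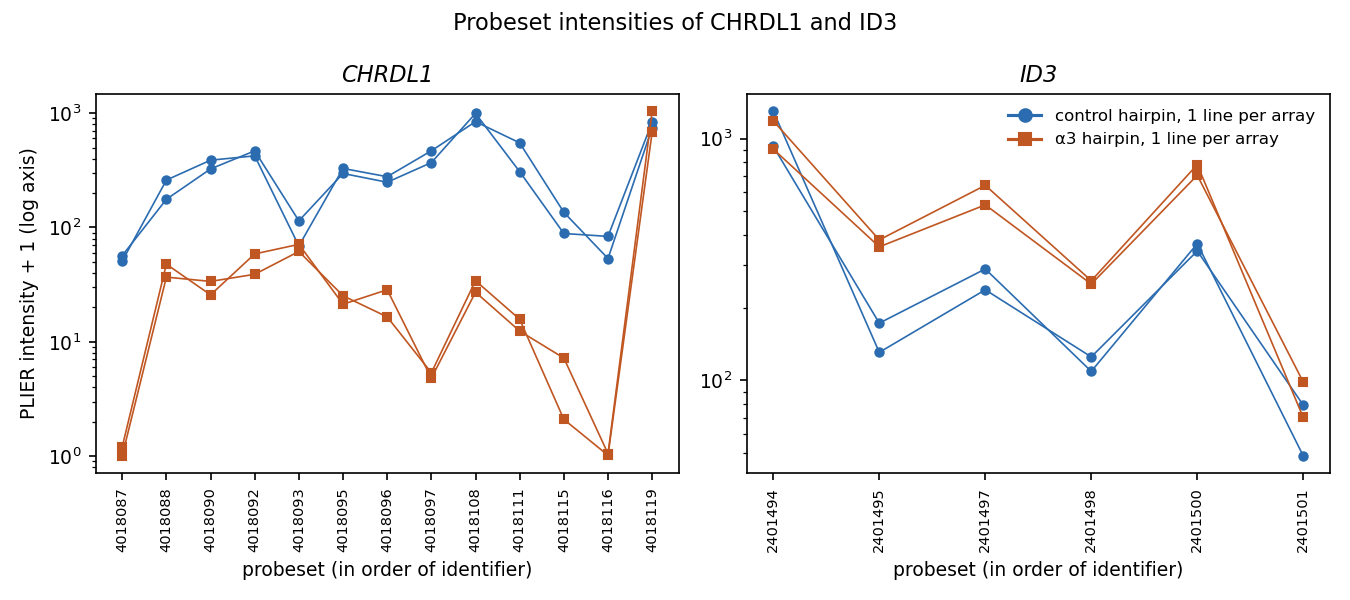
PLIER intensity plus 1 (log axis) of every CHRDL1 and ID3 probeset in order of identifier, dim ones included, with 1 line per array, circles for the control hairpin and squares for the α3 hairpin. The lines part at most CHRDL1 probesets and meet at probesets 4018119 and 4018093 (a dim one), and in ID3 they meet at probesets 2401494 and 2401501.

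The other genes of the pathway were taken from lists written by textbook role, but with earlier results of these data known. Of 78 listed genes, 68 had a gene-level row and 43 were tested, of which 2 were called higher, 7 lower and 34 did not pass. Their median log2 difference was -0.03, close to the -0.06 of all clusters tested, and the shares called lay near the 6.0% and 15.4% of all clusters. After quantile normalization 4 were higher and 6 lower, and after centring 4 and 5. The calls below describe single genes, and the count in each list stands beside the 6.0% and 15.4% of all clusters.

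Among the 13 other BMP and growth and differentiation factor ligands, 8 were dim, 4 were tested and 0 passed. GDF6 measured 126 and 139 under the control hairpin and 117 and 111 in knockdown cells (adjusted p = 0.299, limma), and GDF2 measured 196 and 161 against 184 and 143 (adjusted p = 0.658). Of the 5 ligand genes tested, members included, only BMP4 passed, where 21.4% of all clusters tested were called in either direction. The BMP4 call was lost in 7 of 14 alternative settings. The median of the 4 tested ligands was -0.08.

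Among the other receptors and co-receptors, 8 of 11 were tested, 1 rose, 1 fell and 6 did not pass. TGFBR3, which encodes betaglycan, a co-receptor that also binds BMPs, measured 1138 and 1129 under the control hairpin and 1847 and 1799.5 in knockdown cells, with no overlap (log2 difference 0.68 ± 0.072 (SE), adjusted p = 0.00348, limma). NEO1, which encodes neogenin, a receptor for repulsive guidance molecules that act as BMP co-receptors, measured 401 and 465 against 23.3 and 29.5 (log2 difference -3.40 ± 0.14 (SE), adjusted p = 0.000190). The NEO1 knockdown values lay below the limit of 108, so it was tested through its controls only and the size of its difference is uncertain. NEO1 was already known as one of the largest falls of these arrays when the lists were written. Both calls held in every alternative that tested them. The type I receptor gene BMPR1B measured 143 and 155 under the control hairpin and 179 and 182 in knockdown cells, apart but not passing (adjusted p = 0.158), and endoglin (ENG) measured 214 and 221 against 242 and 263.5 (adjusted p = 0.211).

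The signal-transducing SMADs gave 1 fall among 3 tested. SMAD1, a receptor-regulated SMAD of the BMP branch whose knockdown arrays lay below the limit of 108, so that it was tested through its controls only, measured 137.2 and 136.5 under the control hairpin and 82.5 and 79.5 in knockdown cells (log2 difference -0.66 ± 0.12 (SE), adjusted p = 0.0152, limma). Its call was lost without knockdown replicate 1 (adjusted p = 0.0657) or 2 (0.0879). SMAD5, of the same branch, measured 1146 and 1099 against 1091 and 1111, overlapping (adjusted p = 0.835), and its log2 difference of -0.03 became 0.02 after quantile normalization and 0.07 after centring. SMAD9 was dim. The common partner SMAD4 measured 440 and 523 under the control hairpin and 566 and 557 in knockdown cells and did not pass (adjusted p = 0.192), but passed as higher after quantile normalization (0.0453) and centring (0.0458).

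Of 15 other secreted antagonists, 8 were tested, 0 rose and 2 fell. NOG, which encodes noggin, measured 513 and 634 under the control hairpin and 317 and 357 in knockdown cells (log2 difference -0.73 ± 0.13 (SE), adjusted p = 0.0126, limma), and its call was lost without knockdown replicate 1 (0.0579). FST, which encodes follistatin, an antagonist mainly of activins, measured 1902 and 1750 against 1447 and 1381 (log2 difference -0.36, adjusted p = 0.0261). The FST call was lost without control replicate 1 (0.0633), knockdown replicate 1 (0.0890) or 2 (0.158), without the filter (0.0527) and after centring (0.0865). BMPER measured 104 and 109 under the control hairpin and 136 and 145 in knockdown cells (adjusted p = 0.0864) and passed as higher after quantile normalization (0.0470), centring (0.0454) and without the intensity trend (0.0441). The control mean of BMPER, 107, lay just below the limit of 108, so it was tested through its knockdown arrays. TWSG1 measured 2719 and 2755 against 3149 and 2894 (adjusted p = 0.258). Both falls stand beside the 15.4% of all clusters called lower.

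Among the other intracellular and membrane inhibitors, 7 of 10 were tested, 1 rose and 1 fell. SMURF1, a ubiquitin ligase that marks BMP SMADs for breakdown, measured 305 and 329.5 under the control hairpin and 413 and 432.5 in knockdown cells (log2 difference 0.40, adjusted p = 0.0299, limma). Its call was lost without control replicate 1 (0.0696), knockdown replicate 1 (0.129) or 2 (0.212) and without the filter (0.0550). TOB1, an antiproliferative protein that binds BMP SMADs, measured 1036 and 1106 against 783 and 785 (log2 difference -0.44, adjusted p = 0.0135), and its call was lost without knockdown replicate 1 (0.0753) or 2 (0.0854) and on exon-level medians (0.127). The decoy receptor gene BAMBI measured 181 and 179 under the control hairpin and 203 and 246 in knockdown cells (adjusted p = 0.152), and SKIL measured 360.5 and 365 against 331 and 320 (adjusted p = 0.276).

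Of 15 other genes known as BMP targets in various tissues, 9 were tested and 0 passed, with a median log2 difference of 0.11. MSX1, a homeobox target, measured 518 and 510 under the control hairpin and 395 and 468.5 in knockdown cells (adjusted p = 0.150, limma), and BAMBI, listed here too, is given above. SMAD7, a target and inhibitory SMAD, was dim at 48.8 to 65.1. Of the BMP targets tested, SMAD6 and the ID genes included, those that passed were ID1 and ID3, as higher, and ID4, as lower. Over all clusters tested, 21.4% were called in either direction. The ID4 call was absent on exon-level medians.

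Of the bHLH factors that ID proteins can bind, or that pair with the E proteins, 5 of 12 were tested, 0 rose and 2 fell. These 2 stand beside the 15.4% of all clusters called lower. TCF3, the E protein gene for E12 and E47, measured 474 and 490 under the control hairpin and 389 and 382 in knockdown cells (log2 difference -0.31, adjusted p = 0.0461, limma). TCF4, another E protein gene, measured 136 and 167 against 97.5 and 94.1 (log2 difference -0.58, adjusted p = 0.0339), and was tested through its controls only, since its knockdown arrays lay below the limit of 108. The TCF3 call was lost without any 1 array (0.0660 to 0.268), without filter (0.0726) or trend (0.0531), on exon-level medians (0.0686) and after quantile normalization (0.0943) or centring (0.0896). The TCF4 call was lost without control replicate 2 (0.0987), knockdown replicate 1 (0.110) or 2 (0.149) and without the filter (0.0642). The third E protein gene, TCF12, measured 845 and 956 under the control hairpin and 881 and 803 in knockdown cells (adjusted p = 0.542), and TWIST1 measured 165 and 159 against 173 and 179 (adjusted p = 0.528).

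**Figure D4:**
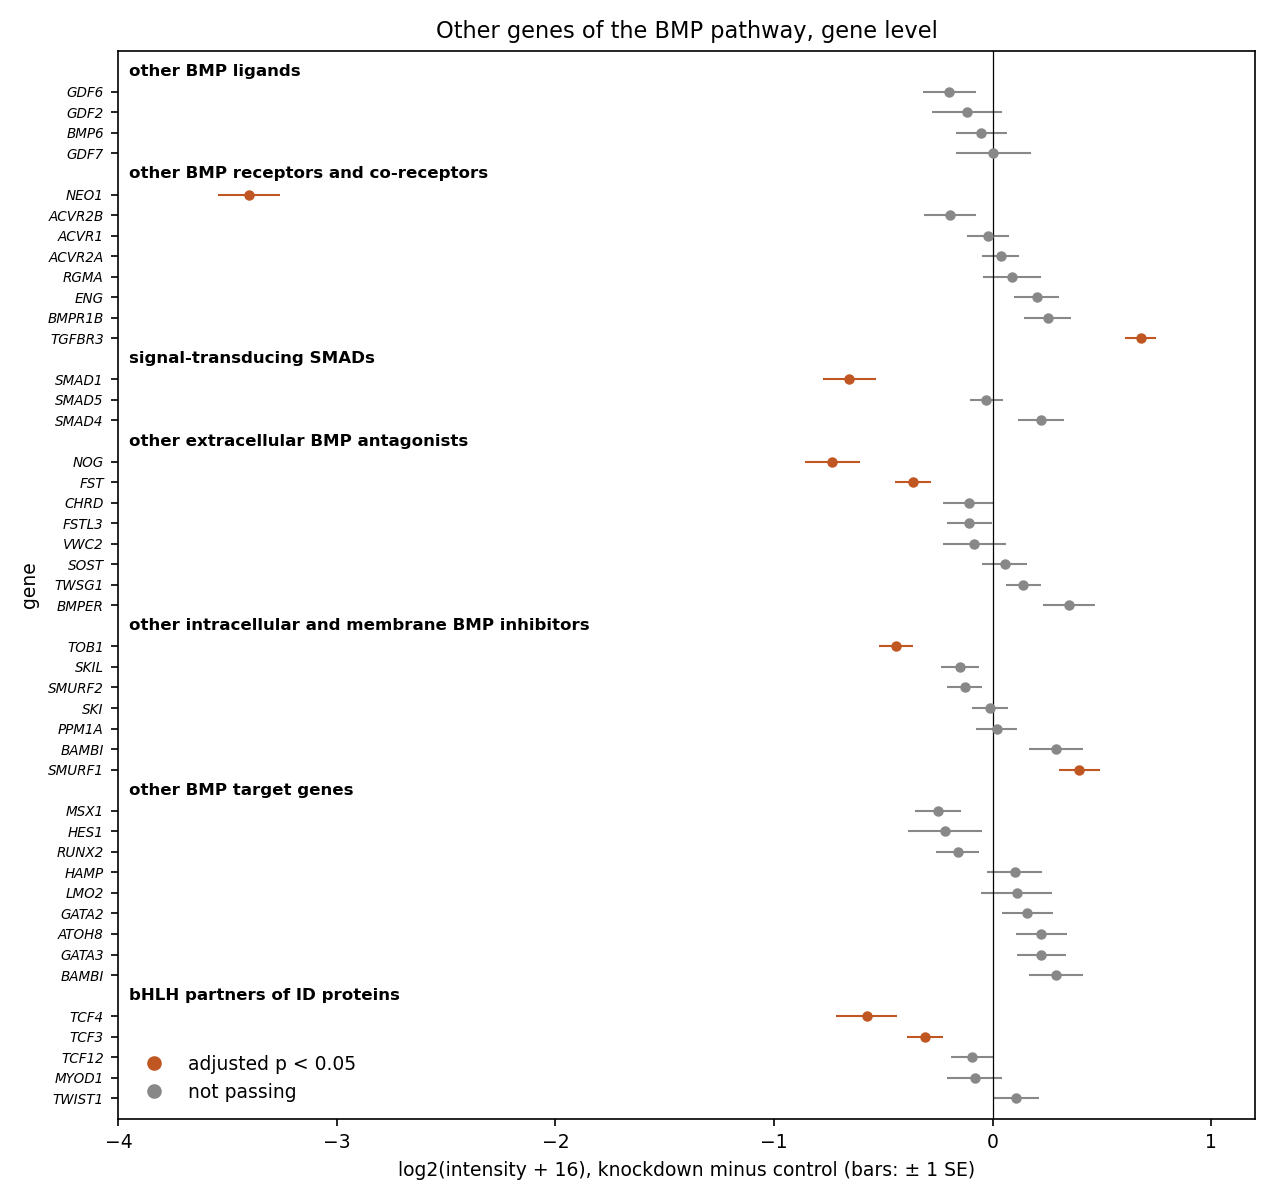
Log2 difference (knockdown minus control, log2(intensity + 16) scale) of the 43 other pathway genes tested at the gene level, grouped by role, with bars of 1 SE and colour for an adjusted p under 0.05. NEO1 stands far below the rest, TGFBR3 and SMURF1 are the 2 called higher, and BAMBI appears in both lists that hold it.

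**Figure D5:**
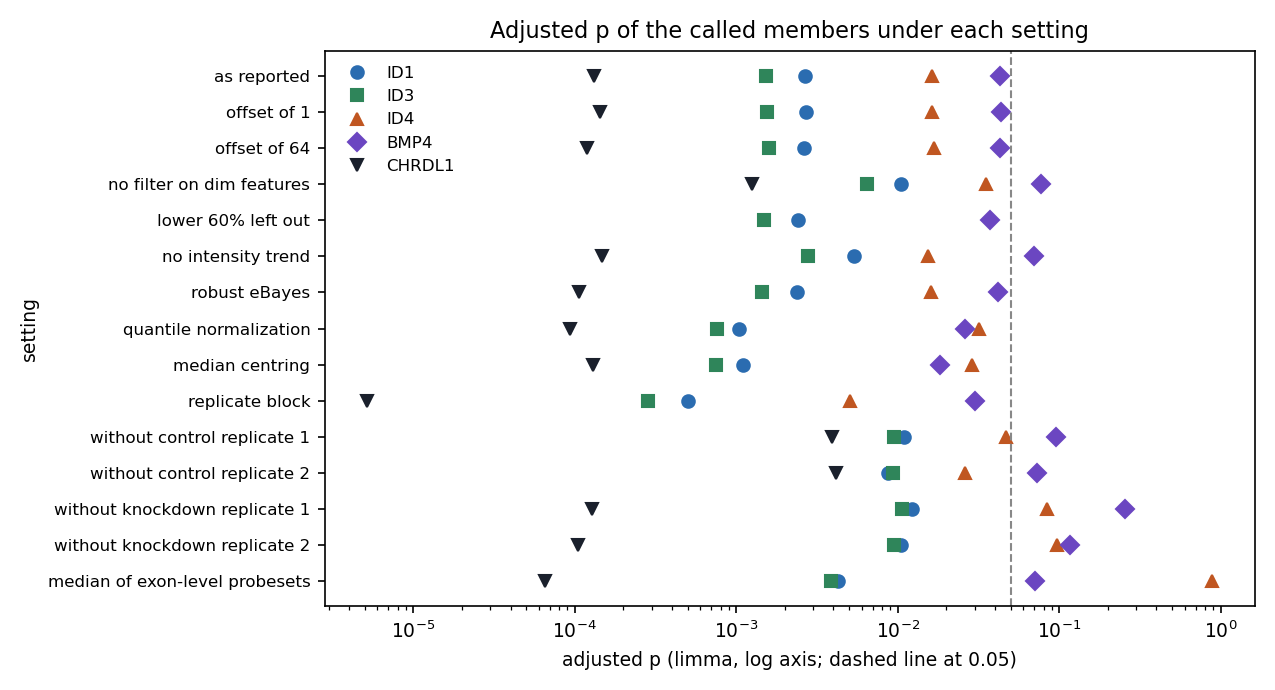
Adjusted p (limma, log axis) of the 5 members called at the gene level, as reported and under each alternative setting, with a dashed line at 0.05. ID1, ID3 and CHRDL1 lie left of the line in every setting that tested them, while BMP4 crosses it in 7 of 14 settings and ID4 in 3 of 13.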

How the data were processed

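Per the labels, the authors deposited linear intensities, PLIER summaries from Affymetrix Expression Console at gene and at exon level. A second program, the Exon Array Computational Tool, stands in the series text. The sources used here do not give program versions or any scaling between arrays, so the deposited scale was kept. Features were named through the platform annotation, with symbols updated through NCBI RefSeq (GRCh38.p14). Of 22011 gene-level features 14432 had 1 symbol, and of 287329 exon-level features 261273. The rest entered the fit unnamed.

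Intensities were transformed as log2(value + 16), the lower 40% of features by mean were left out (limits 108 and 99.4), and limma 3.58.1 in R 4.3.3 (lmFit with a group term, leaving 2 residual degrees of freedom, then eBayes with trend) was fitted over all features. Exon usage compared each probeset with the mean of the others of its gene, in genes with at least 3 tested. The brightest cluster stood for a gene. Steps were tested on simulated data. The members and lists were chosen with earlier results of these data known. Named genes are the members, ITGA3, per list up to 6 called genes and the 2 with the smallest p that did not pass, and the probesets of each member with the lowest and highest difference. Other genes and probesets named were chosen after their values were seen. Alternatives covered offset, filter, variance model, scaling, replicate block, each array left out, and exon-level medians. 4 arrays limit the precision. Plots used matplotlib 3.10.9 in Python 3.11.15.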

Additional observations from a re-analysis of the deposited data

How the results depend on the processing

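ID1, ID3 and CHRDL1 kept direction and call in every alternative that tested them, and no member that passed changed direction. ID2, which did not pass, turned positive after quantile normalization (0.0399), after centring (0.0341) and without control replicate 2 (-0.12 to 0.00108 over the arrays left out), and SMAD6 turned negative on exon-level medians (-0.0177). Among other genes that did not pass, SMAD5 turned positive after quantile normalization (0.0244), centring (0.0704) and without control replicate 1 (-0.0568 to 0.0017 over the arrays left out), GDF2 without control replicate 1 or knockdown replicate 2 (-0.286 to 0.04996), and TCF12 after centring (0.0031). The exon-level median of BMPR1A, an analysis chosen after the data were seen, stayed negative and did not pass in 13 of 13 alternatives.

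Of the members, 0 were called lower with the lower 60% of features left out, which removes ID4 and CHRDL1, and 1 on exon-level medians, against 2 as reported. With 1 array left out, 1 to 2 were lower. Of the other pathway genes, 1 was higher and 4 lower without the filter, 4 were higher after quantile normalization and also after centring, 4 were lower with the stricter filter, and leaving out 1 array gave 1 to 2 higher and 1 to 5 lower. Over all clusters, 485 were higher without the filter, 1353 after quantile normalization, 1542 after centring and 1332 with the replicate block, and leaving out 1 array gave 169 to 893 higher and 663 to 1918 lower. Of all probesets, 43 were higher and 120 lower without the filter, 406 and 1497 without the trend, 10775 and 18356 with the replicate block, 3452 higher after quantile normalization and 3565 after centring, and leaving out 1 array gave 761 to 2011 higher and 2178 to 3386 lower. Of the members' probesets, 0 were higher and 2 lower without the filter, 0 higher without the trend, 1 lower with the stricter filter, and 2 to 6 higher and 7 to 8 lower without 1 array. Exon usage called 4 member probesets with the replicate block, 4 by diffSplice and 1 to 3 without 1 array, against 1 as reported, while over all probesets it called 1473 with the replicate block and 49 to 433 without 1 array, against 92 as reported. The cause of these shifts was not tested. A group cut to 1 array borrows its spread from the other group. The replicate numbers are shared by both groups, but nothing in the labels says that they pair the cultures. The difference between replicates 1 and 2 correlated at 0.29 between the groups across clusters, and the replicate block changed no call of a member at the gene level.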

Other observations

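Of 5 listed pathway genes with an exon-level median but no gene-level row, 2 were lower and 3 (NBL1, CTDSP2 and MSX2) did not pass, where 13.2% of all genes passed in either direction. The 2 were chosen after their values were seen. RGMB, which encodes a repulsive guidance molecule that acts as a BMP co-receptor and binds neogenin, had a log2 difference of -0.62 (adjusted p = 0.0205, limma on medians of at least 3 probesets), and CTDSP1, which encodes a phosphatase that acts on SMADs, one of -0.45 (adjusted p = 0.0372). The homeobox gene DLX5, a BMP target left out as dim, measured 13.1 and 12.3 under the control hairpin and 28.1 and 28.4 in knockdown cells.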
